A study of Caenorhabditis elegans with 9 samples.

Results

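The insulin-like peptide genes of Caenorhabditis elegans were taken as every entry of the deposited count table whose gene symbol starts with ins- or is daf-28. This gave 40 genes, ins-1 to ins-39 and daf-28, of 45461 entries in all. They were read in 9 libraries of whole adult worms, harvested 48 hours after the L4 stage. Worms were kept on agar plates holding 1-methylnicotinamide (MNA) at 1 µM, nicotinic acid or water as the control, with 3 libraries per group, and all plates came from 1 batch of agar. The labels give the nicotinic acid dose as 1 mM in the sample source and as 1 nM in the treatment protocol, so MNA and nicotinic acid were not given at equal doses whichever is right. The strain is not named in the labels. MNA is the methylated amide and nicotinic acid the carboxylic acid of the same pyridine ring.

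Insulin-like peptides are small secreted proteins with a fold like that of human insulin, made mostly in neurons and the intestine and cleaved from longer precursors. They bind a single receptor, DAF-2, some as agonists and some as antagonists. Active DAF-2 signals through a lipid kinase and AKT kinases to keep the transcription factor DAF-16 out of the nucleus, and lower signalling is known for dauer arrest, stress resistance and long life. The worm also carries its own embryos as an adult, so a library of whole animals holds RNA of both.

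Together the 40 genes held 7765 counts, or 0.00335% of all counts, and library totals ran from 18501261 to 31247605. Levels are given as CPM, counts scaled to a common library size, and a floor of 3 counts lies between 0.0960 and 0.162 CPM over the libraries. Floors and intervals cover counting error or the fitted model error only. A common minimum of about 10 counts left 23 of the 40 genes for testing, with summed counts over the 9 libraries from 91 to 1164. The labels do not say that the libraries are separate cultures, so the p-values may reflect technical spread only.

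The other 17 genes were too low to test, with summed counts from 0 to 73. For 6 of them no library reached 3 counts: ins-8, which had 0 in all 9 libraries, and ins-9, ins-15, ins-16, ins-20 and ins-38. A further 9 reached the floor in some libraries, namely ins-11, ins-12, ins-21, ins-25, ins-31, ins-32, ins-36, ins-37 and ins-39. The remaining 2, ins-10 and ins-14, were at or above 3 counts in all 9 libraries. Low counts do not show that a gene was not expressed.

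**Figure D1:**
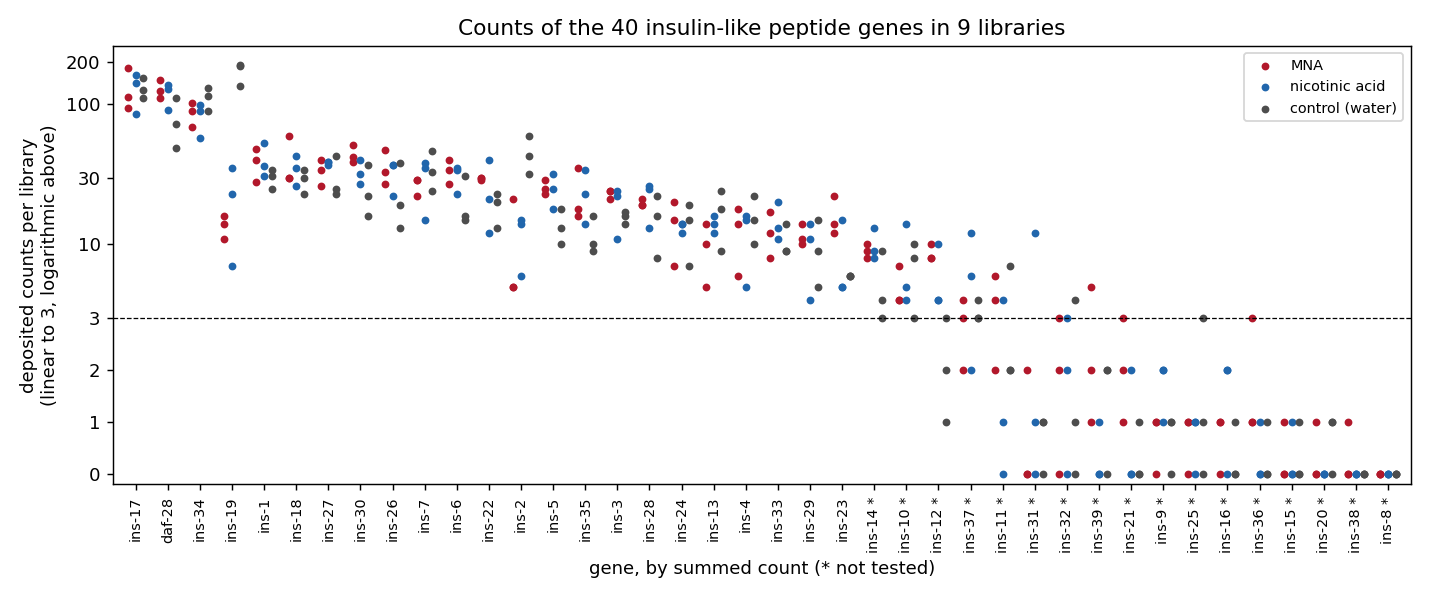
Deposited counts of each of the 40 genes in each of the 9 libraries, ordered by summed count, with MNA, nicotinic acid and control libraries side by side; the axis is linear to 3 and logarithmic above, the dashed line marks 3 counts, and an asterisk marks the 17 genes not tested. The genes span from ins-17, with 85 to 181 counts a library, to ins-8, with 0 in each.

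Levels are compared between genes per kilobase of annotated exon, after division by the library's total counts (CPM per kilobase), with the exon lengths of the WBcel235 annotation (Ensembl release 115), in which 39 of the 40 symbols were found. The RPKM values that the authors deposited were not used for this. For 0 of 38 members with both values was the length behind the deposited RPKM within 1 base of the annotated length, and the ratio ran from 0.0274 to 14.6. For ins-17, ins-34 and daf-28 that length was 21 bases, against annotated exon lengths of 557, 507 and 766 bases. Over the whole table the implied length was within 1 base of the annotated length in 8.08% of genes, and within 1 base of the length of the gene 15 places earlier in 33.6%. Changes between groups are not touched, since 1 length serves all libraries.

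On that scale ins-17 had the highest mean, 8.97 ± 1.54 CPM per kilobase (SD, n = 9). It was followed by ins-19, described next, and by ins-34 at 7.15 ± 1.60 and daf-28 at 5.42 ± 1.29. After these came ins-27 at 4.30 ± 1.03, ins-18 at 3.08 ± 0.746, ins-7 at 2.75 ± 0.718 and ins-22 at 2.73 ± 0.772. These means pool the groups, and the order within a group can differ: ins-34 and daf-28 averaged 6.40 and 6.26 CPM per kilobase under MNA, 6.12 and 5.97 under nicotinic acid, and 8.93 and 4.02 in controls. The pooled means of ins-18, ins-7 and ins-22 did not differ beyond their SDs. Of the 39 genes with a length, 20 had a mean of at least 1. Adjacent genes bear on 2 of the leading values: ins-17 lies 41 bases from the ribosomal protein gene rps-1, which had 459278 counts over the libraries, and ins-34 overlaps nkcc-1 on the other strand by 82 bases. The sources used here do not say whether counting was by strand, and the share of neighbouring reads in these values was not tested.

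Worms kept on MNA had less ins-19 and ins-2 RNA than control worms, and no member passed as higher. Worms kept on nicotinic acid also had less of these 2 transcripts, and both comparisons use the same control libraries. Under MNA 2 of 23 tested members fell and 0 rose (edgeR quasi-likelihood, Benjamini-Hochberg over all genes). At an unadjusted p below 0.05, 3 were lower and 6 higher. DESeq2 gave 2 lower and 0 higher among 27 members with an adjusted p. Among all 13985 tested genes 7.41% were called in that comparison (3.78% fell and 3.63% rose), and 18.9% had an unadjusted p below 0.05. Under nicotinic acid 2 of 23 fell and 0 rose, with 3 lower and 3 higher at an unadjusted p below 0.05. DESeq2 gave 2 lower and 0 higher among 28 members with an adjusted p. Among all tested genes 5.34% were called there (3.4% fell and 1.94% rose), and 19.2% had an unadjusted p below 0.05. The other 21 of the 23 tested members did not pass in either comparison.

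The gene ins-19 (T10D4.13, chromosome II) showed the largest difference among the tested members. It had 0.590, 0.581 and 0.385 CPM in the MNA libraries, 0.239, 1.87 and 0.740 CPM in the nicotinic acid libraries, and 8.49, 5.70 and 6.84 CPM in the control libraries. Every treated library lay below every control library. In counts these were 14, 16 and 11 under MNA and 7, 35 and 23 under nicotinic acid, against 189, 135 and 186 in controls, so the low values rest on few reads but are above the floor. The change was -3.75 on the log2 scale under MNA (SE 0.49, 95% interval -4.85 to -2.65, edgeR adjusted p = 0.0026) and -3.02 under nicotinic acid (SE 0.46, 95% interval -4.05 to -1.99, edgeR adjusted p = 0.00964). These correspond to 13.5-fold and 8.11-fold lower levels. Both calls held in all 14 alternative fits, with adjusted p up to 0.0237 for MNA and up to 0.0489 for nicotinic acid. The nicotinic acid value depends on replicate 2, and without that library it was -3.81.

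Per length, ins-19 averaged 1.43 ± 0.290 CPM per kilobase under MNA, 2.64 ± 2.34 under nicotinic acid and 19.2 ± 4.05 in controls (SD, n = 3 each). The level of ins-17 was 8.64 ± 2.65 CPM per kilobase under MNA and 9.47 ± 1.25 in controls, so ins-19 lay below ins-17 under MNA and above it in controls. In bulk samples fewer cells of a type and less RNA per cell cannot be told apart, and this holds for every value here.

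The gene ins-2 (ZK75.2, chromosome II) was the second member that fell. Its levels were 0.211, 0.182 and 0.735 CPM under MNA, 0.205, 0.748 and 0.483 CPM under nicotinic acid, and 1.93, 1.35 and 2.17 CPM in controls. The treated libraries again lay below all controls, though MNA replicate 3 and nicotinic acid replicate 2 stood nearer to them than the others. The change was -2.23 on the log2 scale under MNA (SE 0.47, edgeR adjusted p = 0.015) and -2.0 under nicotinic acid (SE 0.46, edgeR adjusted p = 0.0303), or 4.69-fold and 4.01-fold lower. The MNA call was lost without MNA replicate 1, MNA replicate 2 or control replicate 3 (adjusted p from 0.0552 to 0.0774). Without MNA replicate 3 the change was -3.19. The nicotinic acid call was lost without nicotinic acid replicate 1 or 3 or control replicate 1 or 3 (adjusted p from 0.0855 to 0.0943).

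**Figure D2:**
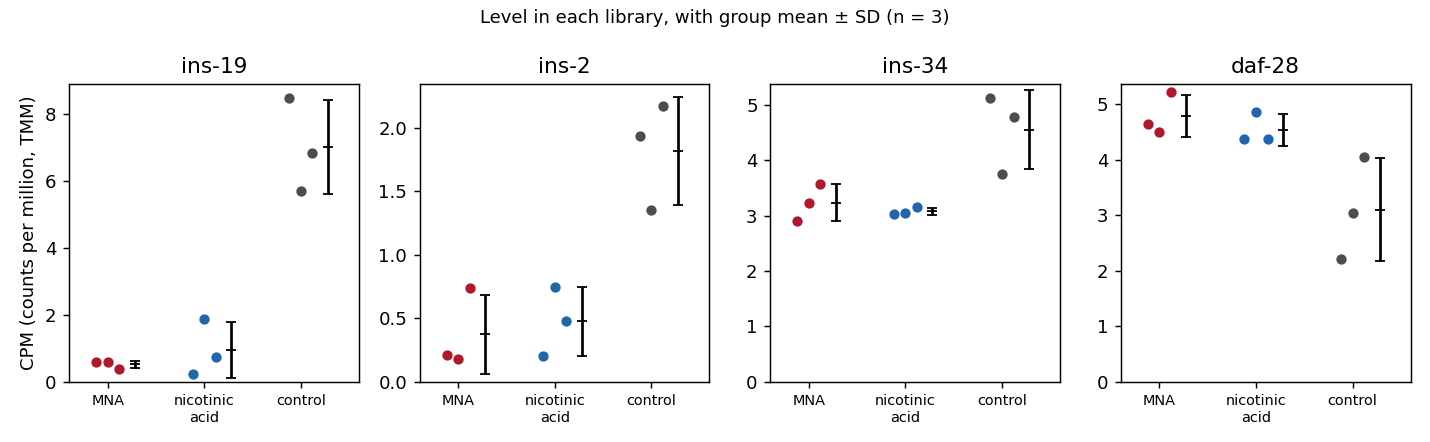
CPM of ins-19, ins-2, ins-34 and daf-28 in each library of the MNA, nicotinic acid and control groups, with the group mean and SD (n = 3) as bars. For ins-19 the treated libraries lie between 0.239 and 1.87 CPM and the controls between 5.70 and 8.49 CPM, while for daf-28 the controls spread from 2.20 to 4.05 CPM below the treated libraries.

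Both genes sit beside other insulin-like genes, which allowed a look at their neighbours. Next to ins-19 the annotation places ins-31, 599 bases away, and srh-71, a chemoreceptor-family gene, 1137 bases away. The gene srh-71 was at -0.18 under MNA (SE 0.44, edgeR adjusted p = 0.895) and 0.60 under nicotinic acid (SE 0.41, edgeR adjusted p = 0.477). For ins-31 the 9 libraries held 2, 0 and 0 counts under MNA, 12, 0 and 1 under nicotinic acid, and 1, 1 and 0 in controls, so that nicotinic acid replicate 1 held most of its 17 counts. Next to ins-2, 672 bases away, lies ins-3, which was at 0.43 under MNA (SE 0.27, edgeR adjusted p = 0.438) and 0.15 under nicotinic acid (SE 0.27, edgeR adjusted p = 0.831). Neither measured neighbour passed the test.

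Markers of the late embryo and of new cuticle were read beside ins-19 and ins-2. The list of 18 was chosen with earlier results of these data known, so its counts are no independent support. Of the 18 markers, 11 had all MNA libraries below all controls and 3 all above, and 11 and 3 was also the count for nicotinic acid. Among all tested genes 24.6% did not overlap between MNA and control, and 22.6% between nicotinic acid and control. Under MNA 6 of the 18 fell and 3 rose, and under nicotinic acid 4 fell and 3 rose (edgeR quasi-likelihood, Benjamini-Hochberg). Those calls were 50% and 38.9% of the list, against 7.41% and 5.34% of all tested genes. DESeq2 gave 8 lower and 3 higher under MNA and 12 lower and 3 higher under nicotinic acid. Leaving out 1 library gave 1 to 8 lower and 3 higher under MNA, with 1 lower without MNA replicate 2, 2 without MNA replicate 1 or control replicate 3, and 3 without MNA replicate 3, nicotinic acid replicate 3 or control replicate 1. Under nicotinic acid it gave 0 to 8 lower, with 8 without nicotinic acid replicate 2, 0 without control replicate 1, 1 without nicotinic acid replicate 3 or control replicate 3, and 2 without any 1 MNA library. The higher count there was 0 without nicotinic acid replicate 1 or 2 or control replicate 1, and 1 without MNA replicate 1. With the replicate number as a block 2 were lower under MNA and 0 were lower and 0 higher under nicotinic acid, where the 6 libraries fitted alone also gave 0 and 0. The summed level of the list was 687 to 826 CPM under MNA, 510 to 767 CPM under nicotinic acid and 849 to 1343 CPM in controls, and each of the 18 was detected.

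The Notch ligand relative dsl-6 had 0.169, 0.254 and 0.350 CPM under MNA, 0.0682, 0.909 and 0.579 CPM under nicotinic acid, and 5.39, 2.11 and 3.42 CPM in controls. In counts dsl-6 had 4, 7 and 10 under MNA, 2, 17 and 18 under nicotinic acid, and 120, 50 and 93 in controls. Nicotinic acid replicate 1 thus lay below the floor of 3 counts. Without the control libraries, the group where it was high, dsl-6 would not have passed the filter. Its changes and calls are to be read with that limit. The intermediate filament gene ifa-3 had 1.81, 0.872 and 1.02 CPM under MNA, 0.614, 2.67 and 2.06 CPM under nicotinic acid, and 13.2, 8.19 and 8.79 CPM in controls. For both, as for ins-19 and ins-2, nicotinic acid replicate 1 was the lowest and replicate 2 the highest of that group, while the order of the MNA libraries differed between the 4 genes. In the opposite direction, the cuticle collagen genes dpy-13, sqt-1 and rol-6 rose under MNA, by 2.49, 2.39 and 2.49 on the log2 scale, and under nicotinic acid by 1.66, 1.65 and 1.60. Their MNA calls held in all 14 alternative fits. Their nicotinic acid calls held in 6, 9 and 6 of the 14, and each was lost without nicotinic acid replicate 1 or 2 or control replicate 1, with the replicate block and with the 6 libraries alone. That of dpy-13 was also lost without MNA replicate 1 or control replicate 2 or 3, and that of rol-6 without MNA replicate 1 or 3 and without a filter. The part of embryo or cuticle content in the change of ins-19 and ins-2 was not tested. The gene dsl-6 lost its MNA call without MNA replicate 2 (adjusted p = 0.051), and its nicotinic acid call without nicotinic acid replicate 3, control replicate 1 or control replicate 3 (highest adjusted p = 0.0576). The nicotinic acid call of ifa-3 was lost without control replicate 1 (adjusted p = 0.0516).

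**Figure D3:**
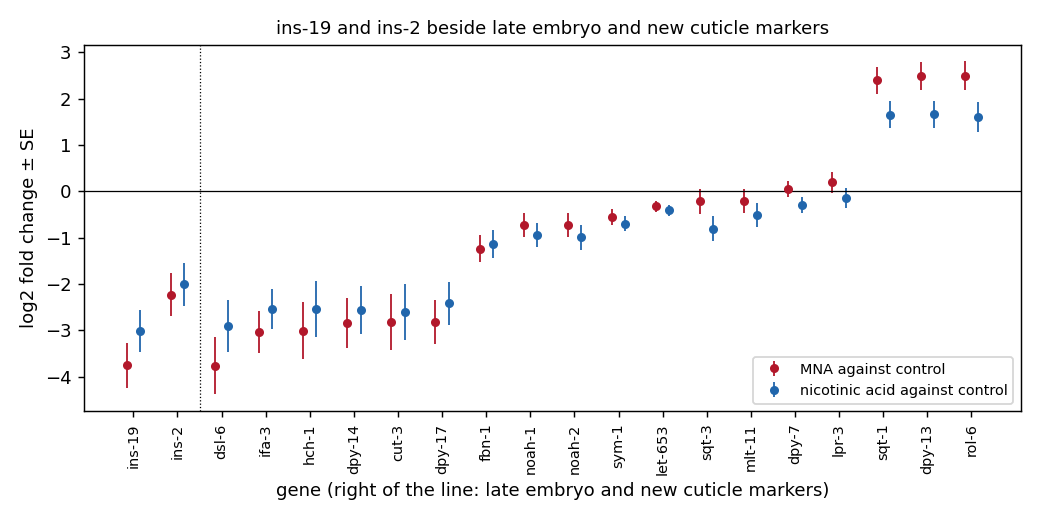
Log2 fold change with its SE for ins-19 and ins-2, left of the dotted line, and for 18 late embryo and new cuticle markers, right of it, under MNA and under nicotinic acid, both against the same controls. The markers span from dsl-6 at -3.77 to rol-6 at 2.49 under MNA. Without the control libraries, where it was high, dsl-6 would not have passed the filter.

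The agonist daf-28 (Y116F11B.1, chromosome V), made in sensory neurons and known to hold back dauer arrest, did not pass. It had 4.64, 4.50 and 5.22 CPM under MNA, 4.37, 4.86 and 4.38 CPM under nicotinic acid, and 2.20, 3.04 and 4.05 CPM in controls. The treated libraries lay above all controls, with control replicate 3 close to them. Its log2 fold change was 0.62 under MNA (SE 0.19, edgeR adjusted p = 0.0672) and 0.53 under nicotinic acid (SE 0.19, edgeR adjusted p = 0.134). Without control replicate 3 both passed, at 0.86 (adjusted p = 0.018) and 0.78 (adjusted p = 0.0453), and without a filter on low counts the MNA value passed.

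Its functional partners ins-4 and ins-6, agonists that act with daf-28 against dauer entry, lie in a row with ins-5 on chromosome II. None of the 3 passed. The gene ins-6 had 1.14, 1.23 and 1.4 CPM under MNA, 1.16, 1.23 and 1.13 CPM under nicotinic acid, and 0.719, 0.633 and 1.14 CPM in controls. The values of ins-5 were 1.05, 1.05 and 0.805 CPM under MNA, 1.09, 0.962 and 0.804 CPM under nicotinic acid, and 0.449, 0.549 and 0.662 CPM in controls. Those of ins-4 were 0.253, 0.509 and 0.630 CPM under MNA, 0.512, 0.267 and 0.515 CPM under nicotinic acid, and 0.989, 0.422 and 0.552 CPM in controls. Controls lay below all treated libraries for ins-5, while for ins-6 and ins-4 the groups overlapped. The MNA values on the log2 scale were 0.79 (SE 0.27) for ins-5, 0.58 (SE 0.25) for ins-6 and -0.45 (SE 0.41) for ins-4, with edgeR adjusted p of 0.114, 0.231 and 0.632. Under nicotinic acid they were 0.76, 0.47 and -0.52, with edgeR adjusted p of 0.142, 0.357 and 0.562.

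Among peptides made in the intestine, ins-7 and ins-35 did not pass. The gene ins-7, an agonist that DAF-16 represses, had 1.22, 0.799 and 1.02 CPM under MNA, 1.19, 0.802 and 1.22 CPM under nicotinic acid, and 1.48, 1.01 and 1.69 CPM in controls. The gene ins-35 had 0.674, 0.654 and 1.23 CPM under MNA, 1.16, 0.748 and 0.740 CPM under nicotinic acid, and 0.404, 0.422 and 0.589 CPM in controls. Groups overlapped for ins-7, while all treated libraries exceeded all controls for ins-35. On the log2 scale ins-35 was at 0.84 under MNA (SE 0.35, edgeR adjusted p = 0.206) and 0.90 under nicotinic acid (SE 0.35, edgeR adjusted p = 0.175), and ins-7 at -0.48 (SE 0.27) and -0.35 (SE 0.27). The intestinal gene ins-11, known from behaviour towards pathogens, was too low, with 2, 6 and 4 counts under MNA, 0, 1 and 4 under nicotinic acid, and 7, 2 and 2 in controls.

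The antagonist-type genes ins-1 and ins-18 did not pass in either comparison. The gene ins-1, known from learning, had 1.69, 1.02 and 1.68 CPM under MNA, 1.23, 1.66 and 1.71 CPM under nicotinic acid, and 1.39, 1.06 and 1.25 CPM in controls. The values of ins-18 were 1.26, 1.09 and 2.07 CPM under MNA, 1.19, 1.39 and 1.38 CPM under nicotinic acid, and 1.03, 1.27 and 1.25 CPM in controls. Groups overlapped for both genes. The 95% interval of the MNA change was -0.30 to 0.78 for ins-1 and -0.24 to 0.88 for ins-18 on the log2 scale, and that of the nicotinic acid change -0.24 to 0.85 for ins-1 and -0.42 to 0.72 for ins-18.

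The 2 members with the most counts after ins-17 and daf-28 were ins-34 and ins-19. The gene ins-34 had 2.91, 3.23 and 3.57 CPM under MNA, 3.04, 3.05 and 3.15 CPM under nicotinic acid, and 5.12, 3.76 and 4.78 CPM in controls. All treated libraries were below all controls, and control replicate 2 was nearest. Its log2 fold change was -0.49 under MNA (SE 0.15, edgeR adjusted p = 0.0807) and -0.56 under nicotinic acid (SE 0.16, edgeR adjusted p = 0.0543), and neither passed. Without control replicate 2 both did, at -0.61 (adjusted p = 0.0349) and -0.68 (adjusted p = 0.0256). Without the filter the nicotinic acid value passed. The overlapping nkcc-1 was at -0.01 under MNA and 0.00 under nicotinic acid. The gene ins-17 had 3.96, 4.07 and 6.34 CPM under MNA, 4.84, 4.54 and 5.18 CPM under nicotinic acid, and 5.66, 4.64 and 5.63 CPM in controls, with overlapping groups.

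On chromosome I, 7 members (ins-24 to ins-30) lie close together. Of these ins-25 was too low, and the other 6 did not pass in either comparison. The gene ins-30 had 1.77, 1.42 and 1.79 CPM under MNA, 0.921, 1.71 and 1.29 CPM under nicotinic acid, and 0.989, 0.676 and 1.36 CPM in controls. All MNA libraries of ins-30 lay above all controls, and the nicotinic acid libraries overlapped them. Its log2 fold change was 0.70 under MNA (SE 0.29, edgeR adjusted p = 0.194) and 0.32 under nicotinic acid (SE 0.30, edgeR adjusted p = 0.624). The most abundant of the cluster per kilobase, ins-27, had 1.10, 1.23 and 1.4 CPM under MNA, 1.33, 1.98 and 1.25 CPM under nicotinic acid, and 1.03, 1.06 and 1.58 CPM in controls. For ins-24, ins-26, ins-27, ins-28 and ins-29 the groups overlapped in both comparisons, and the log2 fold changes ran from -0.07 for ins-24 to 0.49 for ins-26 under MNA.

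On chromosome III ins-22 and ins-23 are adjacent, and ins-22 is widely used as a tagged cargo to follow secretory vesicles. The gene ins-22 had 1.26, 1.09 and 1.02 CPM under MNA, 0.717, 0.641 and 1.29 CPM under nicotinic acid, and 0.899, 0.549 and 0.846 CPM in controls. The gene ins-23 had 0.590, 0.799 and 0.420 CPM under MNA, 0.512, 0.267 and 0.161 CPM under nicotinic acid, and 0.270, 0.253 and 0.221 CPM in controls. For both, all MNA libraries exceeded all controls while the nicotinic acid libraries overlapped them. The MNA change of ins-23 was 1.27 on the log2 scale (SE 0.45, 95% interval 0.31 to 2.23, edgeR adjusted p = 0.119), and that of ins-22 0.54 (SE 0.31, edgeR adjusted p = 0.378). Counts of ins-23 were 14, 22 and 12 under MNA, 15, 5 and 5 under nicotinic acid, and 6, 6 and 6 in controls. It thus passed the filter only through its MNA libraries, the group where it was high, and its interval is to be read with that limit.

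The remaining tested members, ins-3, ins-13 and ins-33, did not pass, with log2 fold changes from -0.94 for ins-13 to 0.43 for ins-3 under MNA and from -0.35 for ins-13 to 0.34 for ins-33 under nicotinic acid. The groups overlapped for each of them in both comparisons. The gene ins-13, with 308 bases of annotated exon, overlaps acdh-2 on the same strand by 87 bases. The part of this overlap in the counts of ins-13 was not tested.

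Among the 17 low genes ins-12 stood out after its values were seen. It had 10, 8 and 8 counts under MNA, 10, 4 and 4 under nicotinic acid, and 2, 1 and 3 in controls, so all treated libraries were above all controls. The control values lie at or below the detection floor. Fitted without the filter its adjusted p was 0.0792 for MNA and 0.338 for nicotinic acid. No gene of the 17 passed in that fit, and ins-8, with no count, could not be fitted.

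Over the 23 tested members, 15 were above 0 under MNA with a median log2 fold change of 0.24, and 14 under nicotinic acid with a median of 0.24, while 49.2% and 49.9% of all tested genes were above 0 with medians of 0.00. The groups did not overlap for 9 of 23 under MNA (39.1%, against 24.6% of all tested genes) and for 6 of 23 under nicotinic acid (26.1%, against 22.6%). By direction, 6 were higher and 3 lower under MNA, against 11.5% and 13.1% of all tested genes, and 3 were higher and 3 lower under nicotinic acid, against 10.7% and 11.9%. These counts cover only the members that passed the filter, and they were not tested. They include ins-23, higher under MNA, which passed the filter only through its MNA libraries. Single libraries were often extreme in the MNA and control groups. Control replicate 3 was the highest control for 12 of the 23 and control replicate 2 the lowest for 13, and MNA replicate 3 was the highest MNA library for 14. Neuron markers, a list of 20 genes of synapses and peptide release, summed to 662 to 693 CPM under MNA, 619 to 731 CPM under nicotinic acid and 605 to 690 CPM in controls, lowest in control replicate 2. None of the 20 passed in either comparison in edgeR, where 7.41% and 5.34% of all tested genes were called. DESeq2 called 0 and 1 of the 20. At an unadjusted p below 0.05, 4 were higher and 2 lower under MNA and 8 higher and 2 lower under nicotinic acid. Of all tested genes 18.9% and 19.2% had such a p. In each comparison 14 of the 20 were above 0. The groups did not overlap for 25% under MNA and 40% under nicotinic acid, against 24.6% and 22.6% of all tested genes. Some of the 20, such as egl-3 and egl-21, are also in the list for peptide processing and release. The part of these neuron markers in the peptide values was not tested.

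**Figure D4:**
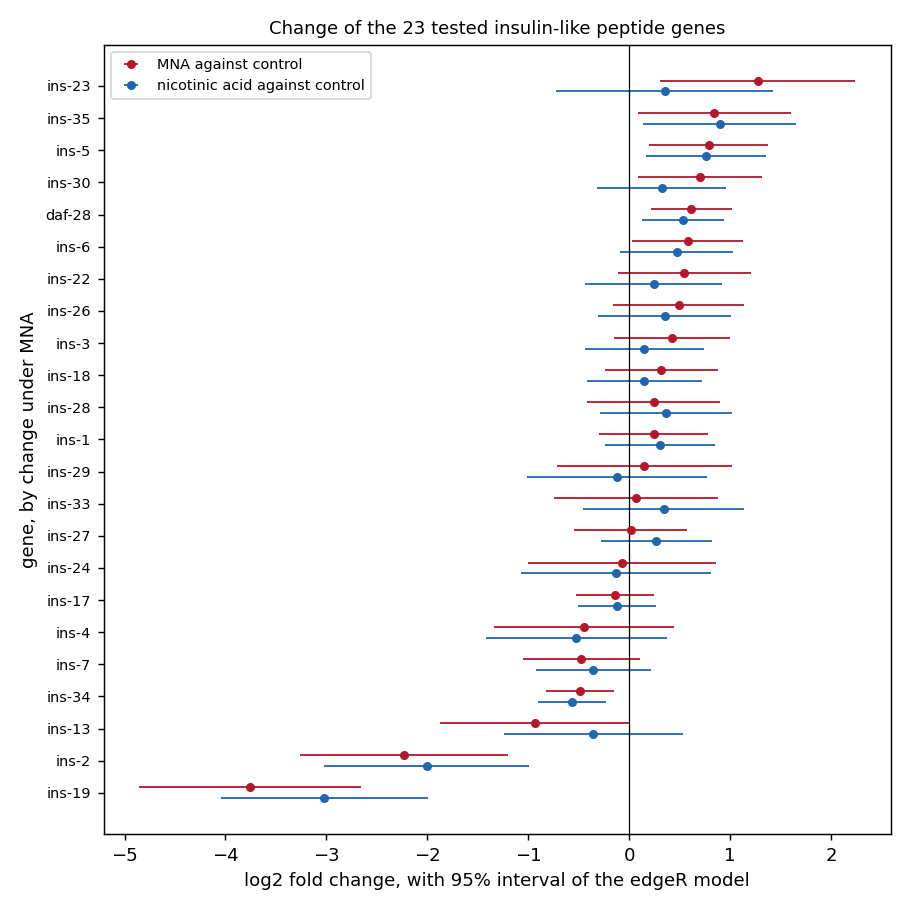
Log2 fold change and 95% interval of the 23 tested genes for MNA against control and nicotinic acid against control, both against the same 3 control libraries, ordered by the MNA value. Both intervals of ins-19 and ins-2 lie far below 0, from -4.85 to -2.65 and from -3.26 to -1.20 under MNA, and most other intervals include 0.

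Between the compounds, at doses that differ, 0 of 23 tested members differed (edgeR quasi-likelihood, Benjamini-Hochberg), with 1 at an unadjusted p below 0.05, 0 in DESeq2 and 1.42% of all tested genes called (1.1% higher and 0.315% lower) and 13.6% at an unadjusted p below 0.05. The groups did not overlap for 0 of the 23, against 19.1% of all tested genes (9.79% higher and 9.3% lower). The member at an unadjusted p below 0.05 was ins-23, at 0.92 for MNA over nicotinic acid (SE 0.42, edgeR adjusted p = 0.358). It had passed the filter only through its MNA libraries. For ins-19 the difference was -0.73 with a 95% interval of -2.11 to 0.65, and for ins-2 -0.22 with an interval of -1.48 to 1.03. For daf-28 it was 0.08 with an interval of -0.31 to 0.47. The intervals for ins-19 and ins-2 are wide, so these data do not show that the compounds act alike on them.

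No gene of the receptor and its downstream kinases passed the test. The list of 16 core genes had 0 past the threshold in edgeR and in DESeq2 in each of the 3 comparisons. At an unadjusted p below 0.05 there were 1, 1 and 0 for MNA against control, nicotinic acid against control and MNA against nicotinic acid. Of all tested genes edgeR called 7.41%, 5.34% and 1.42% in these comparisons, and 18.9%, 19.2% and 13.6% had such an unadjusted p. With shares that low, 0 calls among 16 genes says little about the pathway. Of the 16, 7 were above 0 under MNA and 2 under nicotinic acid (43.8% and 12.5%, against 49.2% and 49.9% of all tested genes). The median log2 fold changes were -0.01 and -0.07. The receptor gene daf-2 had 212, 214 and 179 CPM under MNA, 162, 207 and 199 CPM under nicotinic acid, and 221, 202 and 189 CPM in controls. Its log2 fold change was -0.02 under MNA (95% interval -0.24 to 0.21) and -0.11 under nicotinic acid (95% interval -0.33 to 0.12). The transcription factor gene daf-16 was at -0.07 (95% interval -0.18 to 0.04) and -0.03 (95% interval -0.14 to 0.08), and the lipid kinase gene age-1 at 0.00 (95% interval -0.10 to 0.11) and -0.03 (95% interval -0.14 to 0.07).

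Among 20 genes for peptide processing and release, 1 fell and 0 rose under nicotinic acid. At an unadjusted p below 0.05, 2 were lower and 5 higher, and DESeq2 gave 1 lower and 1 higher. The share called was 5%, against 5.34% of all tested genes, and 19.2% of all had an unadjusted p below 0.05. The gene that fell was kpc-1, which encodes a furin-like protease of the proprotein convertase family. It had 19.6, 20.4 and 19.3 CPM under MNA, 14.8, 18.8 and 20 CPM under nicotinic acid, and 29.8, 22.5 and 26.2 CPM in controls, and all treated libraries lay below all controls. The log2 fold change of kpc-1 was -0.55 under nicotinic acid (SE 0.12, edgeR adjusted p = 0.0192) and -0.40 under MNA (SE 0.12, edgeR adjusted p = 0.0562). The nicotinic acid call was lost without nicotinic acid replicate 1, control replicate 1 or control replicate 3 and with the 6 libraries fitted alone (highest adjusted p = 0.0739). The MNA value passed without nicotinic acid replicate 1 or 3 or control replicate 2, without a filter, with its 6 libraries alone and in DESeq2. Under MNA 0 of the 20 passed, with 2 lower and 3 higher at an unadjusted p below 0.05 and 1 lower in DESeq2. Of all tested genes 7.41% were called under MNA in edgeR, and 18.9% had an unadjusted p below 0.05. The convertase gene egl-3 and the carboxypeptidase gene egl-21, which mature neuropeptides, were at 0.22 (SE 0.10, edgeR adjusted p = 0.242) and 0.20 (SE 0.09, edgeR adjusted p = 0.237) under MNA.

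Known transcriptional targets of DAF-16 were read beside the peptides. Among 20 genes that DAF-16 activates, 14 were tested, and 1 rose and 2 fell under MNA while 1 rose and 1 fell under nicotinic acid. Those calls were 21.4% and 14.3% of the 14, against 7.41% and 5.34% of all tested genes. The gene that rose under MNA was dod-6 (0.32), and those that fell were the late-embryogenesis-abundant protein gene lea-1 (-0.78) and the lysozyme gene lys-7 (-0.35), on the log2 scale. Under nicotinic acid the superoxide dismutase gene sod-3 rose, by 1.27, and lys-7 fell, by 0.61. The list's median log2 fold change was -0.04 under MNA and -0.27 under nicotinic acid, against 0.00 for all tested genes. The MNA call of dod-6 was lost without any 1 MNA library, nicotinic acid replicate 3 or control replicate 1 or 2, and with the 6 libraries alone. That of lea-1 was lost without MNA replicate 2 or control replicate 3, and that of lys-7 without MNA replicate 2 or 3 or any 1 control library, and both were lost with the replicate block. The nicotinic acid calls of sod-3 and lys-7 held in all 14 alternative fits.

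Among 14 genes that DAF-16 represses, 13 were tested, and 5 rose and 1 fell under MNA while 2 rose and 1 fell under nicotinic acid. Those calls were 46.2% and 23.1% of the 13, against 7.41% and 5.34% of all tested genes. The CUB-like gene dod-24 rose under MNA, with 66.9 ± 18.8 CPM under MNA and 23.7 ± 1.12 CPM in controls (SD, n = 3 each), a log2 fold change of 1.5 (SE 0.21, edgeR adjusted p = 0.00645). On the log2 scale F55G11.2 rose by 2.27, the glucuronosyltransferase gene ugt-16 by 1.75 and dod-17 by 1.66. The gene that fell under MNA was dod-23, with 152, 145 and 157 CPM under MNA and 238, 223 and 236 CPM in controls. Its MNA call held in all 14 alternative fits, at -0.65 to -0.59. In the list 7 genes had all MNA libraries above all controls and 6 all below, against 11.5% and 13.1% of all tested genes. Under nicotinic acid dao-4 rose by 2.84 and the peptide transporter gene pept-1 by 0.21, and dod-23 fell by 0.46. In counts dao-4 had 65, 14 and 18 under nicotinic acid, 15, 9 and 10 under MNA, and 3, 5 and 4 in controls. Without its nicotinic acid libraries, the group where it was high, dao-4 would not have passed the filter. Its change and its call are to be read with that limit. The list's median was 0.17 under MNA and -0.22 under nicotinic acid. The MNA calls of dod-24, F55G11.2, ugt-16 and dod-17 held in all 14 alternative fits. The nicotinic acid call of dod-23 held in 5 of 14, and it was lost without any 1 MNA library, nicotinic acid replicate 2 or any 1 control library, without a filter and with the 6 libraries alone. That of dao-4 was lost without control replicate 1 or 3 and with the 6 libraries alone, and that of pept-1 without nicotinic acid replicate 2 or control replicate 1 or 3. Under MNA a second gene of the list was lower without control replicate 3.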

How the data were processed

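RNA of whole adults was sequenced in 9 libraries, 3 per group. Per the submitters' processing notes the upstream tools include HTSeq, TopHat 1.4.1 and CASAVA. Genome build, annotation and counting settings: not given in the sources used here. The counts deposited by the authors are whole numbers per gene with no normalization. The RPKM values deposited by the authors are those counts per library total and a gene length, and they were used to check that length and, by the rule below, to choose genes. Levels were recalculated with exon lengths from Ensembl release 115, a choice made after the lengths were seen.

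Low genes were removed by filterByExpr (minimum count 10), and 13985 genes stayed. An edgeR quasi-likelihood model (version 4.0.16, R 4.3.3, robust, TMM factors 0.963 to 1.03, group only) was fitted to all 9 libraries. Tests were two-sided, adjusted by Benjamini-Hochberg over all genes, with a threshold of 0.05, and were tested on simulated data. DESeq2 1.42.0 was an alternative, beside other size factors, no filter, a replicate block, the 6 libraries of a comparison alone and each library left out. DESeq2 applied its own filter, so its counts can cover other genes of a list than the edgeR counts. Between the compounds it gave 25 insulin-like members an adjusted p. The members and lists were chosen with earlier results of these data known. Libraries of 1 group differed by more than sampling noise (chi-square per degree of freedom 3 to 15.2). Values in every library are given for members past the threshold or with an unadjusted p below 0.05, the 8 highest by deposited RPKM, and a fixed set of 8, and ins-22 and ins-27 were added as 2 of the 8 highest recalculated levels.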

Additional observations from a re-analysis of the deposited data

Results flagged for a closer look

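No insulin-like peptide gene differed between the compounds past the threshold. Among the genes read beside them, 5 did, by the test of MNA against nicotinic acid over the same fit (edgeR quasi-likelihood, Benjamini-Hochberg). Of the DAF-16-repressed genes, F55G11.2 was higher under MNA than under nicotinic acid by 2.26 on the log2 scale, dod-24 by 1.95, ugt-16 by 1.54 and dod-17 by 1.25. Of these, dod-24 lost the call when the 6 libraries were fitted alone (adjusted p = 0.056). The sperm marker fer-1 was at -1.11 for MNA over nicotinic acid (adjusted p = 0.0397), a call lost in DESeq2 (adjusted p = 0.0965), with the replicate block, with the 6 libraries alone and without any 1 MNA library, any 1 nicotinic acid library or control replicate 3 (highest adjusted p = 0.197).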

How the results depend on the processing

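Across the 14 alternative fits, ins-19 stayed lower and past the threshold in both comparisons with control, from -3.88 to -3.57 on the log2 scale under MNA and from -3.81 to -2.52 under nicotinic acid. Of the same 14, ins-2 passed in 11 under MNA and 10 under nicotinic acid. DESeq2 size factors changed the sign of 0 of 23 members in any comparison. Without a filter 1 member was higher under MNA, daf-28, against 0 in the reported fit. Leaving out 1 library gave 0 to 1 members higher and 1 to 3 lower under MNA and likewise 0 to 1 and 1 to 3 under nicotinic acid, and 0 in either direction between the compounds. The third lower member was ins-34.

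The replicate number as a block left 2 members lower and 0 higher in each comparison with control and 0 between the compounds. Same-numbered deviations correlated at 0.10, 0.05 and 0.16 for MNA and control and at -0.05, -0.20 and 0.08 for nicotinic acid and control. Different-numbered ones ran from -0.11 to 0.02 and from -0.11 to 0.16. These values do not settle whether the numbers pair the samples, and the labels do not say what a number shares. Each MNA library correlated best with the control of its own number, a hint from the data and not the design. Over all genes the block gave 92 lower between the compounds, against 44.

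Over the 14 alternatives the core pathway list had 0 calls throughout, and the processing list 0 to 1 lower under MNA and 0 to 2 higher and 0 to 1 lower under nicotinic acid. The DAF-16-repressed genes had 4 to 5 higher under MNA and 0 to 3 under nicotinic acid. Over all genes, nicotinic acid against control gave 144 higher and 244 lower with its 6 libraries alone and 475 higher without a filter, against 272 and 475, and the compounds differed at 281 higher and 150 lower without a filter and 260 and 135 in DESeq2, against 154 and 44. Leaving out 1 library gave 228 to 565 higher and 141 to 630 lower under MNA, 88 to 280 higher and 166 to 558 lower under nicotinic acid, and 75 to 258 higher and 1 to 160 lower between the compounds. The causes were not tested. Depth limits 17 members to counts too low to test.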

Other observations

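Markers of other tissues also differed between groups, and their part in the insulin-like peptide values was not tested. Of 15 sperm genes 11 were tested. By the edgeR test with adjustment over all genes, 8 rose under nicotinic acid and 0 under MNA. The 8 were 72.7% of the 11, against 1.94% of all tested genes that rose. Among the 8, spe-11, ssq-4 and nspd-2 would not have passed the filter without the nicotinic acid libraries, the group where they were high. The same holds for gsp-4, which was tested but did not pass. The share of 72.7% is to be read with that limit. In DESeq2 9 of 14 with an adjusted p rose under nicotinic acid and 0 of 13 under MNA. The list summed to 15.98 to 18.1 CPM under MNA, 23.9 to 44.2 CPM under nicotinic acid, highest in replicate 1, and 12.7 to 14.3 CPM in controls. That count of 8 became 0 when control replicate 3 was left out, 1 without control replicate 1, 3 without nicotinic acid replicate 1, and 5 without MNA replicate 1 or 2 or control replicate 2. Of 12 body wall muscle genes 11 were tested, and the myosin light chain gene mlc-1, the troponin gene mup-2 and unc-87 rose under nicotinic acid. They were 27.3% of the 11, against 1.94% of all tested genes that rose. With control replicate 1 left out mlc-1 no longer passed, and unc-87 and mup-2 no longer passed with any 1 control library or with nicotinic acid replicate 2 or 3 left out. Of 13 intestine genes, pept-1 rose and the esterase gene ges-1 fell under MNA, and pept-1 rose under nicotinic acid. Those calls were 15.4% and 7.69% of the list, against 7.41% and 5.34% of all tested genes. Both MNA calls were lost without MNA replicate 1 or 2 or control replicate 1 or 3.

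The lengths behind the deposited RPKM were compared with annotated lengths along the table, in blocks of 5000 entries. In the first 2 blocks the best match was the gene's own place, at 22.8% and 16.96% of genes within 1 base. From entry 10001 on, the best match in every block was the gene 15 places earlier, at 28.9% to 50.7% of genes. By the deposited RPKM daf-28 ranks 2 and ins-22 ranks 24 among the insulin-like peptide genes, while per kilobase of annotated exon they rank 4 and 8.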
